A study of Mus musculus with 6 samples.

Results

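The 9 genes described here are Ajuba and 8 genes of the Hippo pathway: Yap1, Wwtr1, Tead1, Lats2, Amotl2, Ccn1, Ccn2 and Ankrd1. They were picked by symbol, and all 9 are among the 25369 gene names of the 6 single-cell libraries. They were chosen with their levels in endothelial, stellate, biliary and mesothelial cells and their difference between treatments in view, so the values in those cells are given as a description and carry no test. The CWHM-12 group held 3 libraries from livers of wild-type male mice given CWHM-12, an inhibitor of the integrins that contain the αV subunit, at 100 mg/kg/day from osmotic pumps. The DMSO group held 3 libraries from wild-type male mice whose pumps held the vehicle alone. Both groups were aged 8 to 10 weeks when the inferior vena cava was partially ligated (pIVCL), which congests the liver, received the pumps 2 weeks later and were treated for 4 weeks. No library analysed here came from an unligated mouse, so every value below is from a congested liver, and the share of hepatocytes was set during preparation.

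In the Hippo pathway a chain of kinases that ends in Lats1 and Lats2 phosphorylates the co-activators YAP (Yap1) and TAZ (Wwtr1) and keeps them out of the nucleus. Without that phosphorylation they bind TEAD factors such as Tead1 and switch on target genes that respond to stretch, cell shape and matrix stiffness. Ajuba is a LIM domain protein of cell junctions that holds Lats kinases inactive under tension, and in liver the pathway is known for the control of organ size and biliary identity.

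Windows that run from 250 bases before to 50 bases after an annotated start were taken from RefSeq (GRCm38.p6) for 7 of the 9 genes. Tead1 and Ccn2 had no window in the table. The TEAD core motif CATTCC, searched on both strands as CATTCC or GGAATG, stood in a window of 7 of these 7 genes, against 14.7% of all 32851 windows and 16.6% of 27025 genes. The AP-1 motif TGANTCA stood in 0 of the 7, against 7.81% of all windows. A match is a description of these letters and not a bound site. The windows of Ajuba and of 3 genes known as YAP and TAZ targets are printed 5′ to 3′ on the gene's strand, with the motif in capitals, since these 4 genes recur in the comparisons that follow.
Ajuba, chr14:54577612-54577911, minus strand: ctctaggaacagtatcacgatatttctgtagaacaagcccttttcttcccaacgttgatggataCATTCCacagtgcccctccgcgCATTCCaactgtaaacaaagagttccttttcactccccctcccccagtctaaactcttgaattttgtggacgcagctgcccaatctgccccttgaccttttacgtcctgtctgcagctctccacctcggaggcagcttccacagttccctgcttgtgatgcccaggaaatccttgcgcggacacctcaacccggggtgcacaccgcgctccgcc
Amotl2, chr9:102717554-102717853, plus strand: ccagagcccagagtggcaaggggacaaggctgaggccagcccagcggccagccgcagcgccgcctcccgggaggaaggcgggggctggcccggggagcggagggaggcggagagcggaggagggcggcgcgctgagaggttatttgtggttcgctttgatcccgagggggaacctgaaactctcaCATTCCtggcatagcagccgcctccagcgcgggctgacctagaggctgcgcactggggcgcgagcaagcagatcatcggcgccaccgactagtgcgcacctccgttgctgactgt
Ccn1, chr3:145649936-145650235, minus strand: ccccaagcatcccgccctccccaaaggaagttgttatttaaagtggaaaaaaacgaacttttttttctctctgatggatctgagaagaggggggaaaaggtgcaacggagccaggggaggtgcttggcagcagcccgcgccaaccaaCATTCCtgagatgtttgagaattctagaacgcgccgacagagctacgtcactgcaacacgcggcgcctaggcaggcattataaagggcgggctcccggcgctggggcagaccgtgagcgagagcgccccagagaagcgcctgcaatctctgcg
Ankrd1, chr19:36119795-36120094, minus strand: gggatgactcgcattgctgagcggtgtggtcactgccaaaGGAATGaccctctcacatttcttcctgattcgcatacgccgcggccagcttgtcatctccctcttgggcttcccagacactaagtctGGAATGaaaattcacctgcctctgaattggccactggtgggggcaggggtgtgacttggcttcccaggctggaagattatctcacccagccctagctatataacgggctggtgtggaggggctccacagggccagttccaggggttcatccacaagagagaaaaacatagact
In the Ajuba window CATTCC begins at positions -186 and -164 from the start. In the Amotl2 window it begins at -65, and in the Ccn1 window at -103. The Ankrd1 window has the motif on the other strand, at -210 and -123. Yap1 has it at -141, Wwtr1 at -136 in 1 window and -170 in the other, and Lats2 just after the start in 1 of its 2 windows.

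The cell filter left 38697 cells in 6 libraries of 28220477 to 48100436 UMIs (molecules counted), with medians of 2138 to 3740 UMIs per cell. The batches named in the labels are 2024.6 (CWHM-12 1, DMSO 1 and DMSO 2) and 2024.12 (CWHM-12 2, CWHM-12 3 and DMSO 3). DMSO 2 kept 3163 cells, the fewest, with the highest median mitochondrial share, 11.4% against 7.40% to 10.7% in the others. Libraries shared at most 5 barcodes with each other. The labels name no mouse, so the spread between libraries may be partly technical. Levels are UMIs of a gene scaled to a fixed library total (CPM), after the cells of each class were added up within a library, and they are compared between classes for 1 gene at a time.

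Ajuba RNA was highest in cholangiocytes, the epithelium of the bile ducts, at 173 ± 33.9 CPM (SD, n = 6 libraries). Hepatic stellate cells, the vitamin A storing pericytes of the sinusoid, had 93.2 ± 28.2 CPM and mesothelial cells of the liver capsule 65.8 ± 27.6 CPM (n = 5). Vascular endothelial cells had 54.6 ± 22.8 CPM and liver sinusoidal endothelial cells (LSEC) 51.2 ± 31.5 CPM. The ranges over libraries overlapped between each of these neighbours in the order, but the lowest cholangiocyte library, at 118.8 CPM, was above the highest mesothelial, vascular and LSEC libraries, at 103.2, 85.1 and 101.7 CPM. Kupffer cells, the resident macrophages, had 13.4 ± 5.61 CPM and B cells 2.28 ± 2.74 CPM. Each cell was also thinned to 1000 UMIs, and Ajuba was then found in 14.1% of cholangiocytes, 7.87% of stellate cells, 7.11% of mesothelial cells, 4.97% of vascular endothelial cells and 3.57% of LSEC. The same share was 1.36% in Kupffer cells and 0.280% in B cells, which serve as a measure of free RNA (median depth 6462 UMIs in cholangiocytes, 3733 in LSEC and 2386 in B cells). Without thinning the shares were 56.3% of cholangiocytes, 24.3% of stellate cells, 13.4% of LSEC and 0.384% of B cells.

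**Figure D1:**
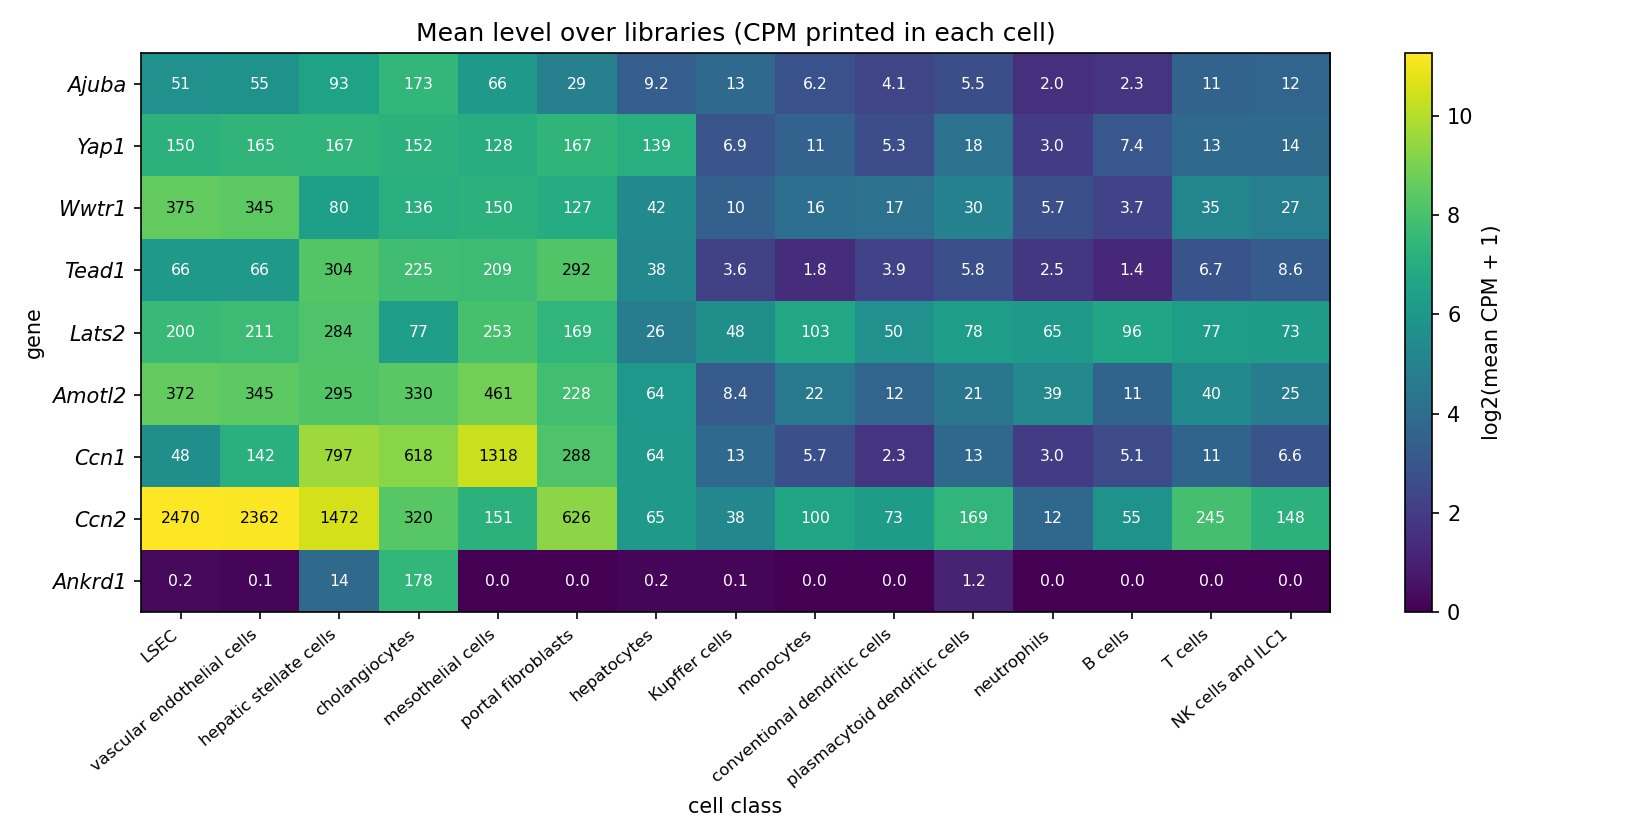
Mean level of each gene (rows) in 15 cell classes (columns), as CPM over the libraries with at least 20 cells of the class, coloured on a log2(CPM + 1) scale. Ankrd1 is high in cholangiocytes at 178 CPM, Ccn2 in LSEC at 2470 CPM, and Yap1 differs little among the 7 classes that are not of blood origin.

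The co-activators were spread differently. Yap1, the YAP co-activator, lay between 128 ± 31.5 CPM in mesothelial cells and 167 ± 37.5 CPM in stellate cells in the 5 classes, and hepatocytes had 139 ± 16.1 CPM. Its levels in these classes overlapped throughout, while in immune classes its means were 17.6 CPM or lower. Wwtr1, which encodes TAZ, had 375 ± 28.8 CPM in LSEC and 345 ± 49.4 CPM in vascular endothelial cells. It was lower in mesothelial cells (150 ± 11.8 CPM), cholangiocytes (136 ± 10.9 CPM) and stellate cells (80.4 ± 30.2 CPM), and the endothelial range began above the highest library of each. Tead1, a DNA-binding partner of both, had another order, with 304 ± 49.8 CPM in stellate cells, 225 ± 17.8 CPM in cholangiocytes and 209 ± 61.5 CPM in mesothelial cells. LSEC had 66.4 ± 14.6 CPM and vascular endothelial cells 66.4 ± 12.3 CPM of it, with every endothelial library below every library of those 3 classes.

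Lats2, the kinase that restrains YAP and TAZ and is itself a target of theirs, was highest in stellate cells at 284 ± 43.8 CPM and in mesothelial cells at 253 ± 78.1 CPM. Vascular endothelial cells (211 ± 32.7 CPM) and LSEC (200 ± 15.1 CPM) followed, and cholangiocytes had 77.4 CPM. It was also found in immune classes, with 103 ± 20.2 CPM in monocytes and 96.4 ± 29.5 CPM in B cells, and it was lowest in hepatocytes at 26.1 ± 4.07 CPM. Its ratio to the endothelial gene Ptprb was 0.0316 in LSEC and 0.702 in B cells, and the part of free RNA in its immune levels was not tested. Amotl2, an angiomotin family protein that binds YAP and TAZ at junctions, ranged only from 295 ± 49.7 CPM in stellate cells to 461 ± 73.7 CPM in mesothelial cells in the 5 classes. Immune classes and hepatocytes had 63.8 CPM of it or less.

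The remaining 3 members are targets of YAP and TAZ. Ccn2, a secreted matricellular protein also called CTGF, reached 2470 ± 698 CPM in LSEC, 2362 ± 929 CPM in vascular endothelial cells and 1472 ± 490 CPM in stellate cells. Cholangiocytes had 320 ± 94.6 CPM of it and mesothelial cells 151 ± 90.5 CPM. The ratio of Ccn2 to Ptprb was 0.391 in LSEC and 0.319 to 0.472 in 7 of the 8 immune classes, and 0.0581 in neutrophils. Ccn2 reached 245 CPM in T cells, and the part of endothelial RNA in its immune levels was not tested. Ccn1, the related matricellular protein also called CYR61, had another order, with 1318 ± 1113 CPM in mesothelial cells, 797 ± 317 CPM in stellate cells, 618 ± 487 CPM in cholangiocytes, 142 ± 79.4 CPM in vascular endothelial cells and 48.4 ± 44.6 CPM in LSEC. DMSO 2 had the highest Ccn1 of all libraries in LSEC, vascular endothelial cells, cholangiocytes and mesothelial cells.

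Ankrd1, a nuclear ankyrin repeat protein, was found mainly in cholangiocytes. It had 178 ± 78.0 CPM there, and after thinning 10.8% of cholangiocytes had a UMI of it, against 0.242% of stellate cells and 0 of 2499 B cells, where the upper bound of the 95% Wilson interval is 0.154% (counting error only). LSEC had 0.219 CPM, with a UMI in 11 of 11154 cells. The stellate mean of 13.9 ± 24.8 CPM rested on CWHM-12 1 at 64.5 CPM, where 49 of 50 UMIs lay in 1 cell. The other 5 stellate libraries had 2.06 to 5.73 CPM.

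Across the means of 15 classes and among 11750 genes, the genes whose pattern was most like that of Ajuba were Amigo1 (Pearson r = 0.961), Trim32 (0.947), Atp9a (0.935), Ift43 (0.93) and Tmem14a (0.909). For Ccn2 they were Ephb4 and Prex2 (both 0.977), Prrg1 (0.968), Pxdn (0.964) and Rarb (0.963). Within the 9 genes, Ajuba was most like Ccn1 (0.863) and Wwtr1 (0.847), and Ccn2 was most like Wwtr1 (0.904). These coefficients are across classes, which share the libraries, and are descriptions only. By rank order 3 of the 5 for Ajuba and 2 of the 5 for Ccn2 stayed among the first 5.

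The comparison of CWHM-12 with DMSO asks how these genes stood when αV integrins, which bind matrix and activate TGF-β, were inhibited. In LSEC, Ajuba had 43.4, 26.9 and 13.25 CPM in CWHM-12 1 to 3, against 53.1, 69.2 and 101.7 CPM in DMSO 1 to 3, from 172 to 301 UMIs and 254 to 824 UMIs a library. Every CWHM-12 library was below every DMSO library, and the log2 fold change was -1.43 (SE 0.46). In batch 2024.6 the difference was -0.48 (CWHM-12 1 against DMSO 1 and 2) and in batch 2024.12 it was -2.41 (CWHM-12 2 and 3 against DMSO 3). The size rested on which libraries entered, with -0.50 without DMSO 3 and -2.34 without CWHM-12 1. As the fits allow for batch, any fit without DMSO 3 compares groups within batch 2024.6 only. Likewise, any fit without CWHM-12 1 compares them within batch 2024.12 only, so these values restate the batch differences. The sign was the same in 18 of 18 alternatives, which reuse the same libraries and are no separate support. No single cell carried the counts, since at most 9 UMIs of a library lay in 1 LSEC. Thinned to 1000 UMIs, 1.97% of CWHM-12 LSEC and 7.23% of DMSO LSEC had a UMI of Ajuba. These shares pool the cells of a group, so libraries weigh by their cell numbers and the batches are mixed unequally. Without thinning, cells with a UMI of Ajuba numbered 169 of 831, 265 of 3552 and 145 of 3263 in CWHM-12 1 to 3. In DMSO 1 to 3 they numbered 273 of 1298, 184 of 809 and 463 of 1401.

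Ccn1 in LSEC had 30.6, 28.2 and 14.9 CPM in the CWHM-12 libraries, against 40.2, 137.5 and 39.1 CPM in the DMSO libraries. These groups did not overlap either, with DMSO 2 far above the other DMSO libraries. The log2 fold change was -1.19 (SE 0.54), with -1.27 within batch 2024.6 and -0.92 within batch 2024.12, and it was -0.67 without DMSO 2, -0.69 with limma voom and -0.51 with equal weights for LSEC clusters. Amotl2 had 315.6, 356.0 and 349.8 CPM in the CWHM-12 libraries, against 358.3, 382.5 and 471.2 CPM in the DMSO libraries, a log2 fold change of -0.32 (SE 0.14). Thus 3 of the 8 genes that passed the filter on low counts were below in every CWHM-12 library, where 6.16% of all 11827 genes tested in LSEC were so placed, and 0 members were above in every CWHM-12 library, where 5.67% of genes were. The genes were chosen on this contrast, and nothing is read from that share. Ankrd1 did not pass the filter, with 3, 4 and 4 UMIs in CWHM-12 libraries and 0, 0 and 1 in DMSO libraries.

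The other members overlapped between groups in LSEC. Wwtr1 had 322.4 to 379.7 CPM in CWHM-12 libraries and 377.0 to 407.6 CPM in DMSO libraries (log2 fold change -0.17, SE 0.14). Yap1 was at -0.18 (SE 0.18), Tead1 at -0.02 (SE 0.15) and Lats2 at 0.04 (SE 0.15). Ccn2 had 2720, 2680 and 1068 CPM in CWHM-12 1 to 3, against 2925, 2852 and 2578 CPM in DMSO 1 to 3, and its log2 fold change of -0.27 (SE 0.35) was -0.02 without CWHM-12 3 or with equal weights for LSEC clusters, -0.09 without DMSO 3, -0.46 without CWHM-12 1 and -0.58 without CWHM-12 2. CWHM-12 3 also had another mix of LSEC, with 10.8% of them in cluster 0, against 40.2% and 55.1% in the other CWHM-12 libraries and 48.1% to 62.7% in the DMSO libraries.

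Ccn2 and Ajuba also varied between LSEC clusters. Cluster 0, led by Esm1 and Cxcl9, had a mean of 3122 CPM of Ccn2, and cluster 11, led by Lyve1 and Selp, 3823 CPM, while cluster 2, led by Adam23 and Cyp26b1, had 613 CPM. Ajuba had means of 50.1 ± 31.1 CPM in cluster 0 and 70.2 ± 38.9 CPM in cluster 2 (n = 6), which overlapped. Within cluster 0 Ajuba had 41.6, 24.8 and 16.7 CPM in CWHM-12 libraries and 50.6, 64.0 and 103 CPM in DMSO libraries, without overlap. The share of all genes so placed in this cluster was not computed. Within cluster 2 the groups overlapped, since CWHM-12 1 had 76.6 CPM and DMSO 1 had 74.6 CPM. With clusters 0 and 2, the only 2 of 7 with enough cells in every library, weighted equally, the Ajuba log2 fold change was -1.28. Cholangiocyte markers, from the class with the most Ajuba, summed to 41.3 to 48.8 CPM in CWHM-12 LSEC and 47.3 to 62.6 CPM in DMSO LSEC. The same 12 genes summed to 12260 CPM or more in every cholangiocyte library, and 1 of the 12 was higher in CWHM-12 LSEC. Stellate markers in LSEC summed to 239.9, 206.5 and 202.2 CPM in CWHM-12 libraries, all above the 192.1, 124.4 and 198.6 CPM of DMSO libraries (9 of 12 genes higher). The summed level of 7 immediate early genes (Fos, Fosb, Jun, Junb, Egr1, Atf3 and Ier2, a list made after the data were seen), which respond to cell stress during preparation, was 1752, 1556 and 2280 CPM in CWHM-12 LSEC and 866.3, 1171 and 1628 CPM in DMSO LSEC, with an overlap between CWHM-12 2 and DMSO 3. The part of any of these in the LSEC values was not tested.

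**Figure D2:**
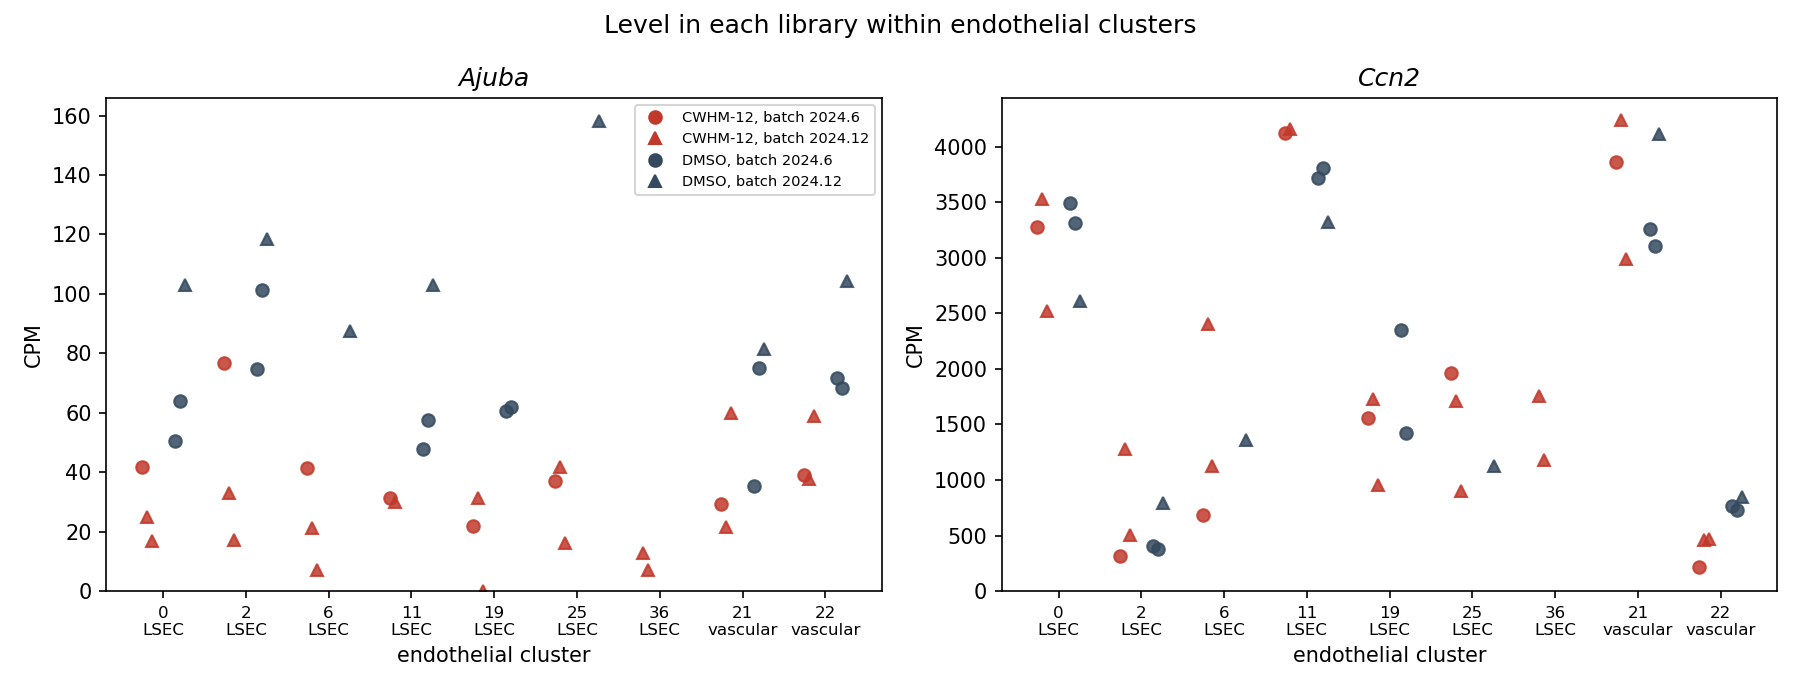
Level in CPM (vertical) of Ajuba and Ccn2 in each library with at least 20 cells of an endothelial cluster (horizontal), CWHM-12 in red left of DMSO in dark blue, the 2 batches as circles and triangles. Ajuba in cluster 0 is at 16.7 to 41.6 CPM in CWHM-12 libraries and 50.6 to 103 CPM in DMSO libraries, while Ccn2 differs mostly between clusters.

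Vascular endothelial cells, which line veins and arteries, had 32.1, 28.2 and 59.7 CPM of Ajuba in CWHM-12 1 to 3, against 47.9, 74.4 and 85.1 CPM in DMSO 1 to 3. CWHM-12 3 lay above DMSO 1, so the groups overlapped. The log2 fold change was -0.94 (SE 0.36), with -0.85 within batch 2024.6 and -1.01 within batch 2024.12. Its sign was the same in 17 of 17 alternatives, which reuse the same libraries. Amotl2 was the 1 member of the 8 tested without overlap, at 272.9, 302.0 and 259.0 CPM in CWHM-12 libraries and 317.0, 408.1 and 512.6 CPM in DMSO libraries, where 6.1% of 8364 genes were below in every CWHM-12 library and 6.05% above. Its log2 fold change was -0.65 (SE 0.22), or -0.23 when cells were clustered without the Hippo genes.

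Ccn2 in vascular endothelial cells had 2464, 2531 and 854.8 CPM in the CWHM-12 libraries, against 2362, 2193 and 3767 CPM in the DMSO libraries. The log2 fold change of -0.52 (SE 0.41) was 0.11 within batch 2024.6 and -1.36 within batch 2024.12, and it was 0.13 without DMSO 3, -0.17 without CWHM-12 3, -1.15 without CWHM-12 1 and -1.72 when clusters were made without the Hippo genes. The 2 vascular clusters differed widely in Ccn2, with a mean of 3593 CPM in cluster 21, led by Selp and Rspo3, and 582 CPM in cluster 22, led by Cyp1a1 and Adgrg6. CWHM-12 3 had 29 of its 190 vascular cells in cluster 21 and DMSO 3 had 150 of 184. Amotl2, with means of 382.4 CPM in cluster 21 and 283.8 CPM in cluster 22, overlapped between groups within both. CWHM-12 3 had 360 CPM of it and DMSO 1 had 351.7 CPM in cluster 21. In cluster 22 CWHM-12 2 had 283.1 CPM and DMSO 1 had 259 CPM. Within cluster 21 the groups overlapped in both Ccn2 and Ajuba. Within cluster 22, Ccn2 had 217, 464 and 473 CPM in CWHM-12 libraries, all below the 763, 730 and 848 CPM of DMSO libraries. Ajuba had 38.97, 37.8 and 59.1 CPM there in CWHM-12 libraries, all below the 71.6, 68.5 and 104 CPM of DMSO libraries. Cluster 22 held 20 cells of CWHM-12 1 and 34 of DMSO 3, and all vascular cells of CWHM-12 1 had 16 UMIs of Ajuba. The share of all genes so placed within a cluster was not computed. LSEC markers in vascular endothelial cells summed to 8034 to 12070 CPM in CWHM-12 libraries and 11970 to 18200 CPM in DMSO libraries (2 of 10 higher with CWHM-12). The same 7 immediate early genes summed to 1549, 1796 and 2960 CPM in CWHM-12 libraries, all above the 735.8, 1123 and 1146 CPM of DMSO libraries. The part of either in the values of Ajuba, Amotl2 and Ccn2 was not tested. Ccn1 was at -0.73 (SE 0.45), -0.12 without CWHM-12 1, -0.31 without DMSO 2, -1.44 without DMSO 3 and -2.12 when clusters were made without the Hippo genes. Yap1, Wwtr1, Tead1 and Lats2 were between -0.23 and 0.06.

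**Figure D3:**
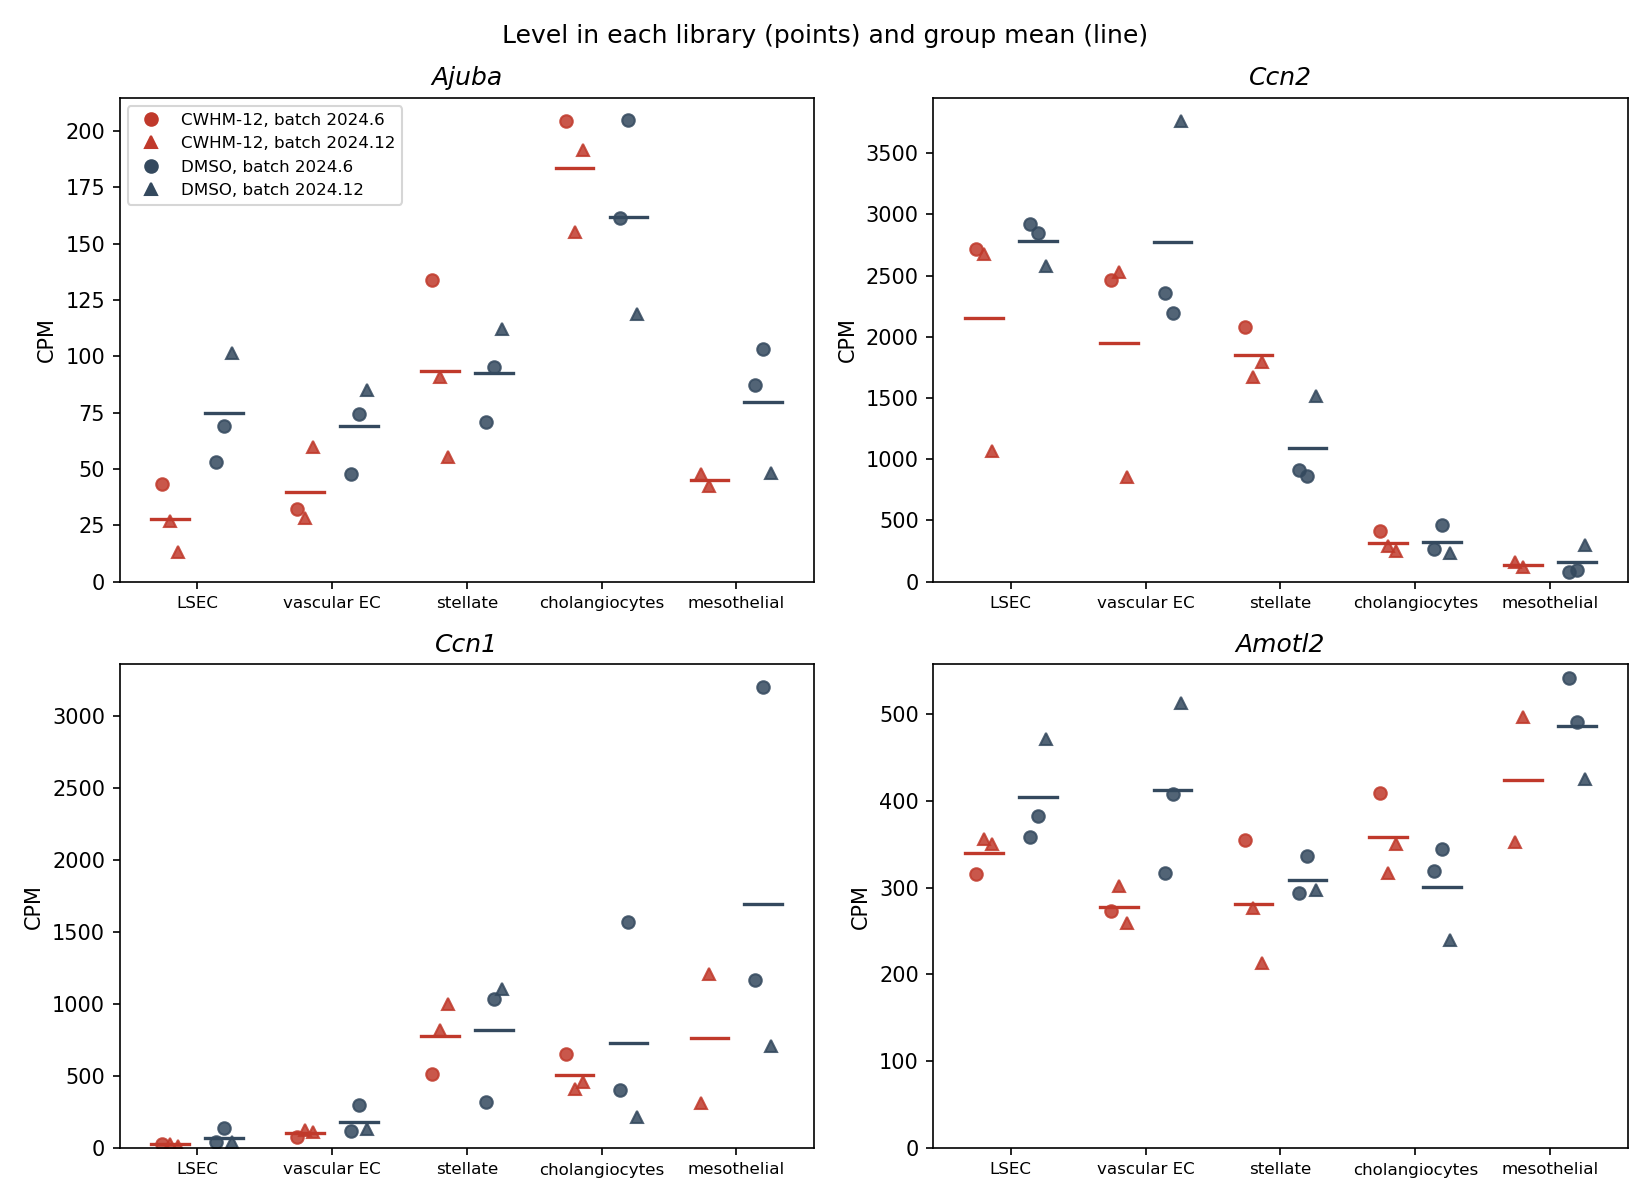
Level in CPM (vertical) of Ajuba, Ccn2, Ccn1 and Amotl2 in 5 cell classes (horizontal), with each library as a point, CWHM-12 in red left of DMSO in dark blue, batches as circles and triangles, and the group mean as a line. Ajuba in LSEC is below in all 3 CWHM-12 libraries, Ccn2 in stellate cells is above in all 3, and Ccn1 is highest in DMSO 2 in 4 of the 5 classes.

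In stellate cells, Ccn2 had 2080, 1673 and 1793 CPM in CWHM-12 1 to 3, against 909.3, 864.0 and 1514 CPM in DMSO 1 to 3. Every CWHM-12 library was above every DMSO library, as for 5.55% of the 8749 genes tested there, and the log2 fold change was 0.71 (SE 0.24). Most of it lay in batch 2024.6, where it was 1.23, against 0.19 in batch 2024.12. It was 0.22 when classes came from marker scores. Without CWHM-12 1 it was 0.19 and without DMSO 3 it was 1.22. These fits restate the batch values, since each leaves only 1 batch with both groups. In CWHM-12 1, 1 cell held 278 of 1613 Ccn2 UMIs and 5 cells held 33.5%, against 7.37% and 10.5% in 5 cells of CWHM-12 2 and 3 and 8.61% to 27.9% in DMSO libraries. Immediate early genes summed to 1499 to 1858 CPM in CWHM-12 stellate cells and 1050 to 3130 CPM in DMSO stellate cells. A cluster of 730 cells that held markers of both stellate cells and LSEC was left out of the stellate cells. It had 60, 269 and 158 cells in CWHM-12 1 to 3 and 102, 47 and 94 in DMSO 1 to 3. Also left out was a cluster of 416 cells with markers of stellate and Kupffer cells. That cluster had 10, 199 and 72 cells in CWHM-12 1 to 3 and 17, 34 and 84 in DMSO 1 to 3. The part of these cells in the values with classes from marker scores was not tested.

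Wwtr1 in stellate cells had 47.7, 78.8 and 51.1 CPM in the CWHM-12 libraries, against 88.3, 130.6 and 86.1 CPM in the DMSO libraries, without overlap. Its log2 fold change was -0.74 (SE 0.30), with -1.15 within batch 2024.6 and -0.43 within batch 2024.12, and it was -0.25 where marker scores alone set the classes and -1.19 without DMSO 3. In LSEC, where Wwtr1 is far higher, the value was -0.17, and LSEC markers in stellate cells summed to 407.5 to 679.4 CPM in CWHM-12 libraries and 412.6 to 1313 CPM in DMSO libraries (1 of 10 genes higher with CWHM-12). Their part in the stellate value was not tested. In all, 1 member was above and 1 below without overlap, where 5.43% of genes were below. Ajuba in stellate cells was at 0.02 (SE 0.32), with opposite signs in the batches, 0.69 in batch 2024.6 and -0.65 in batch 2024.12. Yap1 was at -0.34 (SE 0.24), Ccn1 at -0.33 (SE 0.39), and Tead1, Lats2 and Amotl2 at -0.06 to -0.05.

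In cholangiocytes the fold change was above 0 on the log2 scale for 7 of the 9 members, against 4603 of all 9029 genes tested. The medians were 0.19 and 0.01. The fold change was below 0 for 7 of 8 members in LSEC (5545 of 11827 genes) and 5 of 8 in vascular endothelial cells (4025 of 8364). It was below 0 for 6 of 8 in stellate cells (4175 of 8749) and 6 of 8 in mesothelial cells (2875 of 5897). The genes were chosen on this contrast, and nothing is read from these counts. Ankrd1 in cholangiocytes had 314.9, 160.5 and 153.8 CPM in CWHM-12 1 to 3, against 143.0, 208.5 and 85.2 CPM in DMSO 1 to 3. The groups overlapped through DMSO 2, but within both batches the difference was alike, 0.86 in 2024.6 and 0.87 in 2024.12. The log2 fold change was 0.87 (SE 0.20), between 0.55 and 0.98 over 17 alternatives, with 0.55 without the batch term. Thinned to 1000 UMIs, 14.7% of CWHM-12 cholangiocytes and 7.33% of DMSO cholangiocytes had a UMI of Ankrd1, with the cells of a group pooled. Without thinning, cells with a UMI of it numbered 28 of 50, 58 of 167 and 64 of 155 in CWHM-12 1 to 3. In DMSO 1 to 3 they numbered 42 of 115, 35 of 97 and 74 of 224, and these shares overlapped between groups. CWHM-12 1 held 50 cholangiocytes, and 5 of them had 70 of its 154 Ankrd1 UMIs (45.5%). In DMSO 2, 5 of 97 cells had 67 of its 124 (54.0%). The share in 5 cells was 26.4% to 37.4% in the other libraries. Amotl2 was at 0.39 (SE 0.18) and Ajuba at 0.37 (SE 0.20), both with overlap. Ccn1 was at 0.23 (SE 0.51), with 1570 CPM in DMSO 2 and 211.8 to 652.3 CPM in the other 5 libraries, and -0.59 to 1.04 over the alternatives. Immediate early genes summed to 5887, 4273 and 6883 CPM in CWHM-12 cholangiocytes and 4411, 4184 and 4743 CPM in DMSO cholangiocytes, which overlapped, and their part in these values was not tested. Of the 9 members, 0 were placed without overlap, against 5.56% of genes above and 5.46% below. LSEC markers in cholangiocytes summed to 403.1 to 630.4 CPM in CWHM-12 libraries and 74.0 to 153.3 CPM in DMSO libraries (10 of 10 higher with CWHM-12). Kupffer cell markers summed to 803.6, 183.6 and 164.6 CPM in CWHM-12 1 to 3 and 150.7 to 176.3 CPM in DMSO libraries, so 1 library stood apart, and CWHM-12 1 also had the highest Ankrd1. The part of either marker list in the values of Ankrd1 and the other members was not tested.

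Mesothelial cells were few, with 242 in all. CWHM-12 1 held 11 and was left out, and since DMSO 3 was then the only DMSO library in the batch of CWHM-12 2 and 3, the fitted differences set those 2 libraries against DMSO 3 alone. Ccn2 had 161.8 and 116.7 CPM in CWHM-12 2 and 3, against 80.3, 93.4 and 303.2 CPM in DMSO 1 to 3, so both CWHM-12 libraries were below DMSO 3 and above DMSO 1 and 2. The log2 fold change was -1.13 (SE 0.38), and it was -0.20 without the batch term. In DMSO 3, 5 cells held 89 of its 94 Ccn2 UMIs. Immediate early genes summed to 2065 and 5772 CPM in CWHM-12 libraries and 3467 to 4378 CPM in DMSO libraries. Stellate markers were also highest in the mesothelial cells of DMSO 3, at 13910 CPM, against 6981 and 7970 CPM in the CWHM-12 libraries and 6383 and 7084 CPM in the other DMSO libraries. Kupffer cell markers summed to 6554 and 9290 CPM in CWHM-12 libraries and 59.1 to 3922 CPM in DMSO libraries. LSEC markers summed to 1799 and 2076 CPM in CWHM-12 libraries and 342.6 to 1189 CPM in DMSO libraries, and the part of any of these in the values was not tested. Ajuba, Yap1 and Tead1 were below in both CWHM-12 libraries, 3 of the 8 members tested, where 14% of 5897 genes were, and 0 members were above in both, where 15.6% of genes were. Their log2 fold changes were -0.12 (SE 0.50), -0.46 (SE 0.39) and -0.35 (SE 0.40), and without the batch term that of Ajuba was -0.81. Lats2 was at 0.22 (SE 0.39) and Wwtr1 at -0.19 (SE 0.37), and Ccn1, at 0.11 (SE 0.81), was -1.14 without the batch term. No UMI of Ankrd1 was counted in mesothelial cells.

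**Figure D4:**
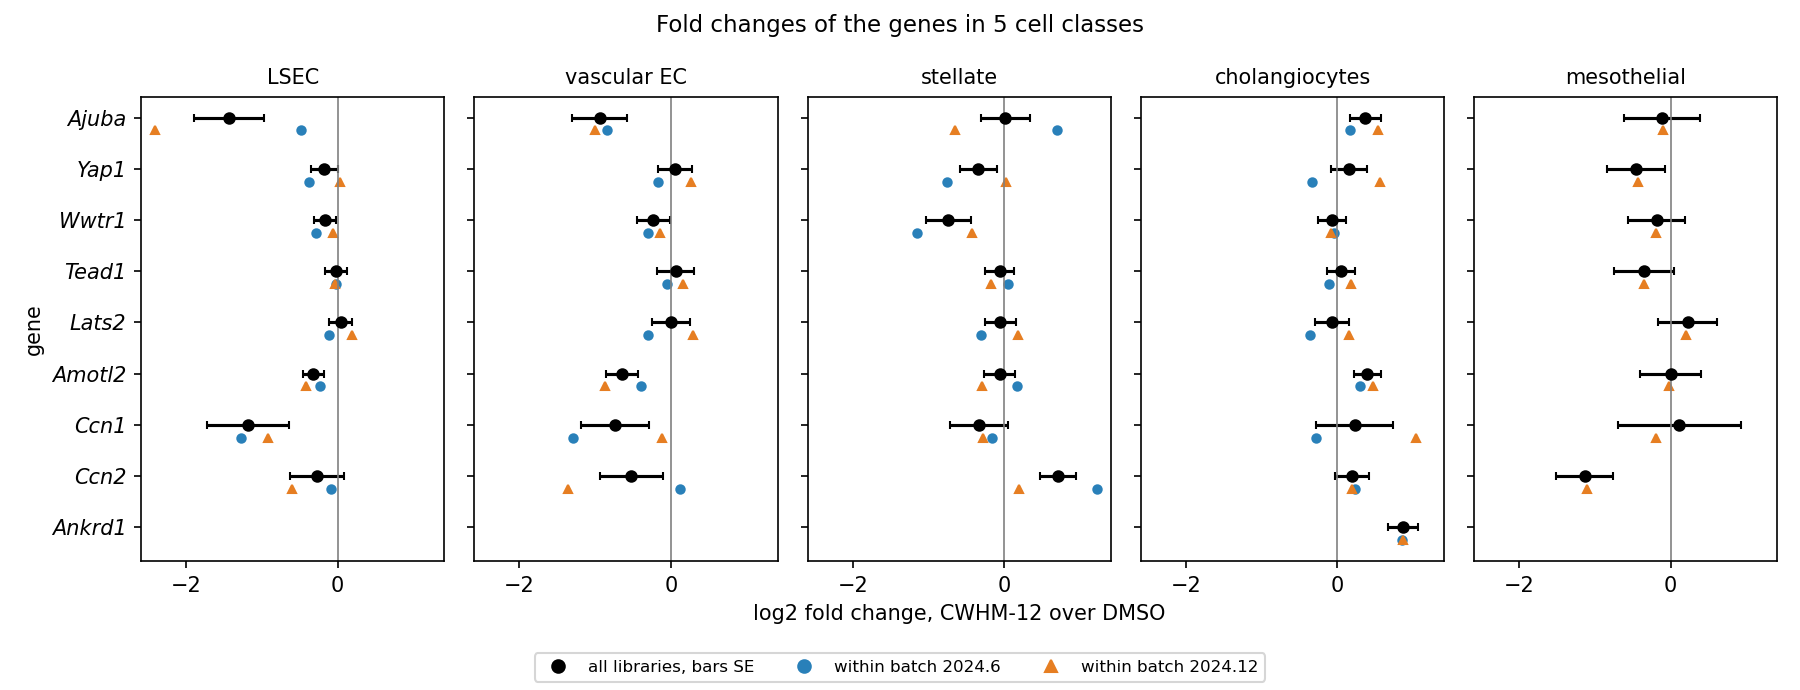
Log2 fold change, CWHM-12 over DMSO (horizontal), of each gene that passed the filter on low counts (vertical) in 5 cell classes, black with the standard error, and the differences within batch 2024.6 (blue circles) and batch 2024.12 (orange triangles) under it. Ajuba is negative in both batches in LSEC and vascular endothelial cells, Ankrd1 is near 0.87 in both batches in cholangiocytes, and Ajuba in stellate cells has opposite signs.

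Of 74 other Hippo pathway genes in 5 lists (core kinases, junction and polarity regulators, LIM proteins, co-activators and TEAD complexes, and targets), 72 were found in the files, and the edgeR quasi-likelihood test called none of them in these 5 classes. In LSEC 56 passed the filter, 32 higher and 24 lower, with a median log2 fold change of 0.03 against 0.02 over all genes. edgeR called 0 of them and 0% of all 11827 genes in LSEC, with 0 of the list genes and 275 of all genes (2.33%) under 0.05 before adjustment, and DESeq2 called 2 and limma voom 0 of all genes. In vascular endothelial cells it was 25 higher and 27 lower of 52, in stellate cells 24 and 31 of 55, in cholangiocytes 31 and 28 of 59 and in mesothelial cells 22 and 29 of 51. edgeR called 0% of genes in the first 3 of these and 0.0678% in mesothelial cells, none of them on the lists. Before adjustment, p was under 0.05 for 0 list genes in vascular endothelial cells (3.31% of all genes there), 1 in stellate cells (2.75%), 2 in cholangiocytes (2.59%) and 4 in mesothelial cells (5%). DESeq2 called 3, 0, 9 and 11 of all genes in these 4 classes and limma voom 0, 0, 12 and 18, again with 0 list genes. The 4 mesothelial genes edgeR called, named here after their values were seen, were Cxcl12, Colec11, Masp1 and Agtr1a, all lower, and Colec11 is on the stellate marker list.

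Among the LIM proteins related to Ajuba, Trip6, a zyxin family adaptor that also binds Lats kinases, averaged 142 ± 16.96 CPM in CWHM-12 cholangiocytes and 87.6 ± 33.7 CPM in DMSO cholangiocytes (log2 fold change 0.62, SE 0.27, edgeR adjusted p = 0.998, above in 3 of 3 libraries). In stellate cells Trip6 averaged 77.4 ± 5.66 and 49.9 ± 18.7 CPM (0.49, SE 0.28, edgeR adjusted p = 1) in the same order. Zyx, which encodes zyxin of focal adhesions, averaged 299 ± 28.5 CPM in CWHM-12 stellate cells and 175 ± 93.3 CPM in DMSO stellate cells (0.64, SE 0.37, edgeR adjusted p = 1). DMSO 2 had the lowest Trip6 in both classes and the lowest Zyx in stellate cells. In both classes 2 of the 5 related LIM genes were above in every CWHM-12 library. Of all genes, 5.56% in cholangiocytes and 5.55% in stellate cells were so placed. In LSEC, where Ajuba was low in the CWHM-12 libraries, its relatives Limd1, Wtip, Zyx, Lpp and Trip6 all overlapped between groups, at -0.22 to 0.28. Lpp was at -1.07 (SE 0.36, edgeR adjusted p = 0.893) in mesothelial cells.

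Of the remaining list genes nearest to the threshold, none passed. In LSEC they were Rbms3 (-0.91), Ccdc80 (0.26), which encodes a matrix protein, Ptpn14 (-0.23), a phosphatase that binds YAP, and Amotl1 (0.28), a relative of Amotl2, each with an edgeR adjusted p of 1. In vascular endothelial cells they were Stk3 (-0.52), the MST2 kinase upstream of Lats, Map4k4 (-0.36) and Gadd45a (-0.59), again with an edgeR adjusted p of 1. In stellate cells Rassf3 was at -0.77 and Lpp at -0.30, with an edgeR adjusted p of 1. In cholangiocytes Myof was at -0.49, Crb3, of the apical polarity complex, at 0.51 and Tead3 at 0.45, with an edgeR adjusted p of 0.998. In mesothelial cells Crim1 was at 1.24, Arhgef17 at -1.34 and Rbms3 at -1.43, with edgeR adjusted p of 0.893, 0.893 and 0.943.

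Outside the classes used to choose them, the members could be tested. The 9 other classes gave 31 member tests in 8 of them, since no member passed the filter in neutrophils, and edgeR called 0 of them. DESeq2 and limma voom also called 0, and 1 member test had an edgeR p under 0.05 before adjustment. Of all genes, that level was met by 1.7% in hepatocytes, 1.8% in Kupffer cells, 2.25% in monocytes, 4.39% in T cells, 1.31% in B cells, 3.44% in conventional and 2.72% in plasmacytoid dendritic cells, 3.44% in neutrophils and 4.49% in NK cells and ILC1. edgeR called 0% of genes in hepatocytes, Kupffer cells, monocytes, T cells, B cells, neutrophils and both dendritic cell classes, and 0.569% in NK cells and ILC1. In hepatocytes Ccn1 was at -1.22 (SE 0.99), Ajuba at -0.67 (SE 0.47) and Yap1 at 0.23 (SE 0.29). In Kupffer cells Ajuba was at 0.55 (SE 0.38) and Tead1 at 0.85 (SE 0.51), with an edgeR adjusted p of 1 for each of these. The smallest p was that of Ccn2 in NK cells and ILC1, with a log2 fold change of 1.66 (SE 0.58, edgeR adjusted p = 0.803). It passed without DMSO 2 (2.53, edgeR adjusted p = 0.00162) and without the filter on low counts (1.67, edgeR adjusted p = 0.0261), the 2 settings in which any of these member tests was called. There Ccn2 had 455.1, 88.5 and 0 CPM in CWHM-12 1 to 3, against 75.3, 259.7 and 10.6 CPM in DMSO 1 to 3. Ptprb, the endothelial gene, had 1633, 289.5 and 67.4 CPM in the same CWHM-12 libraries and 357.6, 401.3 and 42.4 CPM in the DMSO libraries, with the highest value of both genes in CWHM-12 1, and the part of endothelial RNA in the Ccn2 value was not tested.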

How the data were processed

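RNA of single liver cells was captured in 6 libraries with the BD Rhapsody system. The deposited values are UMI counts, whole numbers for every gene in each of the 10000 barcodes of a library, per the file headers. Reads were placed on GRCm39, according to the submitters' processing notes, and the aligner, annotation and choice of barcodes were not given in the sources. Barcodes with at least 300 genes and 500 UMIs and at most 30% mitochondrial UMIs were kept. Scrublet's automatic threshold marked 0.0372% to 1.09% of a library's cells, too few in most, so cells above a common score of 0.25 were removed, 715 in all. The other 37982 cells were clustered in scanpy 1.11.5 (2000 variable genes, 40 principal components, 20 neighbours) with leidenalg 0.10.2 at a resolution of 1.5. From marker lists, 39 of 48 clusters were named by hand into 16 classes. A class means cells that resemble the named type, and 9 clusters stayed unnamed.

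Counts were added up per class and library (at least 20 cells) and tested in 14 classes with the edgeR 4.0.16 quasi-likelihood test, using TMM, its filter on low counts, a batch term and Benjamini-Hochberg adjustment at 0.05 over all genes of a class. The CPM levels of classes use library sizes scaled by TMM, and those of endothelial clusters use the total UMIs of the cluster in a library without TMM. Levels are given as mean ± SD, and standard errors were worked back from the F statistic. Within a batch, mean log2 CPM (prior count 2) was subtracted between groups. The one interval bound given for a share is from a 95% Wilson interval. The script was tested on simulated data. The members, lists, markers and alternatives were chosen with earlier results of these data known. Besides the members, the text names list genes that pass, the 4 of smallest p and at least 20 CPM otherwise, Ajuba's zyxin family relatives and the 5 genes most like Ajuba or Ccn2. Some genes that this rule or a marker list holds are not reported here. Alternatives were fits without batch, with a replicate block, with DESeq2 1.42.0, with limma 3.58.1 voom or with other size factors, no filter, other cell filters, doublets kept, classes set by marker scores, clusters made without the Hippo genes, equal cluster weights, and each library left out. Printed sequences are RefSeq windows of GRCm38.p6, and no coordinates of the files were used.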

Additional observations from a re-analysis of the deposited data

How the results depend on the processing

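Of 894 values recomputed under alternatives, 801 stayed within a set limit and 93 moved. For a fold change the limit was the spread between libraries, and 644 of 697 member fold changes stayed within it. A fold change could switch sign and still count as unmoved. Ajuba in stellate cells kept its sign in 7 of 17 alternatives, with 2 counted as moved. Genes called by edgeR numbered 0 in LSEC, vascular endothelial cells, stellate cells and cholangiocytes and 4 in mesothelial cells. Without the filter on low counts the numbers were 26 in LSEC, 62 in vascular endothelial cells, 33 in stellate cells, 48 in cholangiocytes and 135 in mesothelial cells, with 1 list gene in cholangiocytes (Cdh5), 2 in mesothelial cells (Igfbp3 and Nt5e) and 1 member outside the classes of the choice (Ccn2 in NK cells and ILC1). DESeq2 called 2 genes in LSEC, 3 in vascular endothelial cells, 9 in cholangiocytes and 11 in mesothelial cells. limma voom with sample weights called 12 in cholangiocytes and 18 in mesothelial cells. Without the batch term 1 was called in cholangiocytes and 0 in mesothelial cells. In mesothelial cells the number was 1 with DESeq2 size factors, 1 with the stricter cell filter and 0 where marker scores set the classes. With one library left out in turn it ran from 0 to 64 in mesothelial cells (highest without DMSO 1), 0 to 23 in cholangiocytes (highest without DMSO 2), 0 to 2 in stellate cells and 0 to 1 in LSEC, and members called outside the classes of the choice ran from 0 to 1 (Ccn2 in NK cells and ILC1 without DMSO 2). The cause was not tested.

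The replicate numbers were not taken to pair the libraries. The correlation of deviations of same-numbered libraries was -0.0856 to 0.134 in LSEC, stellate cells and cholangiocytes. That of differently numbered libraries was -0.198 to 0.194, and with 3 libraries a group these values cannot decide whether they are paired. With the replicate block 5 genes were called in cholangiocytes and 1 in stellate cells, the log2 fold change of Ankrd1 in cholangiocytes was 0.55 and that of Ccn2 in mesothelial cells -0.38. Neutrophils could not be fitted under 6 of the settings, and mesothelial and plasmacytoid dendritic cells not without DMSO 3, where batch and treatment cannot be told apart. Values of the small classes rest on few cells, with 50 cholangiocytes and 11 mesothelial cells in CWHM-12 1.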
